A study of Mus musculus with 24 samples.

Results

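Nuclear RNA of NeuN- nuclei, which lack the neuronal nuclear antigen (the protein of Rbfox3) and come mainly from glia, was compared between hippocampi of Ogg1-/- and WT mice. The comparison used the 3 Ogg1-/- and the 3 WT libraries of this sorted fraction, 6 of 24 libraries in the series, and every gene that passed a filter on low counts, 31863 of 55254. All mice were male, 6 months old and on a C57BL/6N background. The labels name no agent or treatment for either group, and WT mice carried neither knockout. In Ogg1-/- mice only Ogg1 was targeted, while Mutyh was left intact, and the design of the Ogg1 allele is not given in the sources used here. Other libraries of the series came from Mutyh-/- mice, from the double knockout (DKO) and from NeuN+ nuclei, which come from neurons, with 3 replicates in each group. The methods give nuclei pooled from 3 animals per genotype for this RNA, and their account of the sort gives another pool size. Whether a replicate was a separate pool or part of 1 pool is thus unclear, and the p-values then measure only the spread between these libraries, which may be technical.

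Ogg1 encodes the glycosylase that removes 8-oxoguanine, a common product of guanine oxidation, from DNA. It starts base excision repair, in which a damaged base is cut out, the abasic site is opened and a polymerase and a ligase close the gap. Mutyh removes the adenine that was paired with 8-oxoguanine during replication. The NeuN- fraction of the hippocampus holds oligodendrocytes, which make myelin, their precursors, astrocytes, which clear glutamate and GABA from the synapse and buffer potassium, microglia, and vascular cells. The comparison addressed which transcripts of these cells differ when Ogg1 is missing.

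Total counts per library ran from 64114727 to 92409869 in WT (median 80439126) and from 56982273 to 69578076 in Ogg1-/- (median 65861446). Replicate libraries were distinct, with unequal counts for 73% or more of the genes in each pair. Levels are given as CPM, TMM-normalized counts scaled to a common library size, and genes are compared between groups and not with each other. Adjusted p-values are those of the quasi-likelihood test in edgeR, corrected by the Benjamini-Hochberg method over all 31863 genes. DEGs were genes whose adjusted p was below 0.05 and whose log2 fold change exceeded 0.5 in either direction. The labelled cell type was checked against markers. Oligodendrocyte markers summed to between 6348 and 8392 CPM over the 6 libraries, astrocyte markers to between 3648 and 5403 CPM, microglial markers to between 812 and 1004 CPM, and neuronal markers to between 575 and 746 CPM. Neuronal transcripts were thus not absent from the sorted NeuN- nuclei, and none of the 9 neuronal markers was at 0.

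The targeted gene came first. Ogg1, on chr6:113326972-113335068 of GRCm38, had 7.0005, 6.90 and 6.21 CPM in WT and 6.81, 7.12 and 6.43 CPM in Ogg1-/-. The groups overlapped, and the difference was smaller than the spread between replicates (log2 fold change 0.02, SE 0.09, adjusted p = 0.970). Its RNA was therefore not lower in the libraries labelled Ogg1-/-, and a count per gene does not resolve exons, so the label could not be checked by this gene. The 3' end of Ogg1 overlaps that of Camk1 on the other strand, and the handling of strand in the counting is not given in the sources used here. The sign of this small value turned without Ogg1-/- replicate 2 (-0.02) or without WT replicate 3 (-0.03). Mutyh, which was not targeted in these mice, had 3.07, 2.85 and 2.60 CPM in WT and 3.56, 3.51 and 3.19 CPM in Ogg1-/-, and its difference did not pass the test (log2 fold change 0.27, SE 0.12, adjusted p = 0.398).

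In all, 73 of the tested genes were DEGs (0.229%), of which 41 were higher (0.129%) and 32 lower (0.1%) in Ogg1-/-. Leaving out the fold limit, 109 genes passed (0.342%), 58 higher and 51 lower, and 3768 genes had an unadjusted p under 0.05 (11.8%). The 3 Ogg1-/- and 3 WT libraries did not overlap in 6303 genes (19.8%), and all 73 DEGs were among them. The median log2 fold change of all tested genes was 0.00, with 50.2% of genes above 0. Each DEG was refitted in up to 14 alternative fits, which were judged on the adjusted p alone, whatever the fold. Of the 73 DEGs, 47 passed the adjusted p in each of these fits and 26 lost significance in 1 or more, while none changed sign. Fewer genes were lower when Ogg1-/- replicate 1, Ogg1-/- replicate 2 or WT replicate 1 was left out (20, 19 and 21 DEGs). More were called by a fit of the 6 libraries alone (147), by the likelihood ratio test (168) and by DESeq2 (169).

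Most DEGs fell into a few genomic places. Counting by position in GENCODE vM21 or RefSeq, 23 lay in a stretch of under 1 Mb on chromosome 4, 16 on chromosome 6 within 20 Mb of Ogg1, 8 on chromosome 14, and 6 on X and Y. Another 3 had no position, and 17 lay elsewhere. Of the 41 higher DEGs, 23 belonged to the chromosome 4 stretch, and of the 32 lower DEGs, 12 lay within 20 Mb of Ogg1. When the genes of the chromosome 4 stretch and the unplaced DEGs were removed and p-values adjusted again, 40 DEGs were left, 12 higher and 28 lower. With the genes within 20 Mb of Ogg1 and those of X and Y removed as well, 19 were left, 8 higher and 11 lower. These exclusions were chosen after seeing the data.

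**Figure D1:**
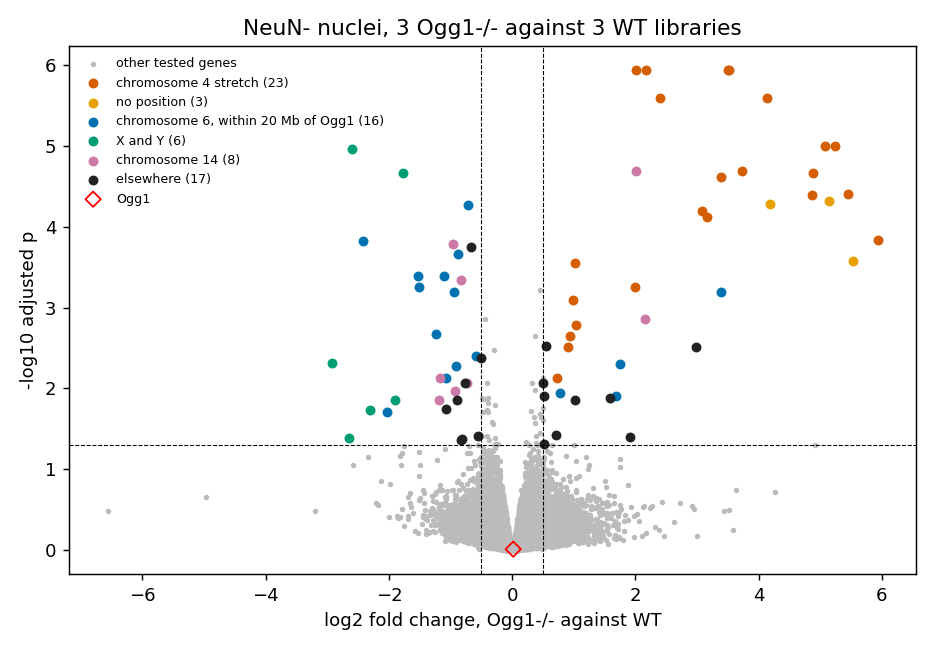
Log2 fold change of Ogg1-/- against WT in NeuN- nuclei (horizontal) and -log10 of the adjusted p (vertical) for 31863 genes, with DEGs coloured by position and dashed lines at the limits for a DEG. The genes of the chromosome 4 stretch fill the upper right, the genes within 20 Mb of Ogg1 and those of X and Y lie mostly on the left, and Ogg1 itself sits at 0.02 with an adjusted p of 0.970.

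The strongest differences were on chromosome 4, between 41809083 and 42612860. This stretch holds copies of Ccl21, whose chemokine guides lymphocytes and dendritic cells to lymph nodes through the receptor CCR7, together with copies of Fam205a and many unnamed gene models. Several of these copies are nearly identical, and reads that match more than 1 copy can be split or dropped in counting, so the value of each single copy is uncertain. RefSeq (GRCm38.p6) shows how close they are. The 150 bases that precede the starts of 3 copies that rose and of Ccl21a, a copy outside the stretch, are printed 5′ to 3′ on the gene's strand, ending at most 1 base before the start, with capitals at the 2 positions where the 4 differ.
Ccl21d, chr4:41903462-41903611, plus strand: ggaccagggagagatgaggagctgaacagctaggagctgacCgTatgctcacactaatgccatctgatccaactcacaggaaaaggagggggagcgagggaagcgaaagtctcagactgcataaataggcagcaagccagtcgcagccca
Gm13304, chr4:42114636-42114785, plus strand: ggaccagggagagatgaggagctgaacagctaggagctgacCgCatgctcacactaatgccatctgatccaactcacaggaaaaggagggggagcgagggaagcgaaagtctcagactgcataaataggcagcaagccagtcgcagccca
Gm10591, chr4:42611972-42612121, plus strand: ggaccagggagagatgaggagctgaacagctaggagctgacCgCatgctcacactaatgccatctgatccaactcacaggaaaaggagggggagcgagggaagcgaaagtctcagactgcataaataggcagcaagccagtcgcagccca
Ccl21a, chr4:42773992-42774141, minus strand: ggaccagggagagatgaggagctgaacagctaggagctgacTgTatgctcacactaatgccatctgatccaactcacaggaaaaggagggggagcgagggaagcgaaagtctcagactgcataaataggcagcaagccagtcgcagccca
Each of the other 3 differs from Ccl21d at 1 of 150 bases (99.3% identity). Of the 73 DEGs, 35 had an entry in this promoter table.

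The levels of these copies moved unequally. Ccl21d had 0.677, 0.516 and 0.785 CPM in WT and 7.39, 9.74 and 9.25 CPM in Ogg1-/-, a rise of 13.2-fold (log2 fold change 3.72, SE 0.26, adjusted p = 2.02e-05). Gm13304 had 1.77, 1.08 and 1.71 CPM in WT and 11.6, 15.3 and 14.4 CPM in Ogg1-/- (log2 fold change 3.16, SE 0.27, adjusted p = 7.61e-05). Gm10591 had 1.46, 1.02 and 1.56 CPM in WT and 9.74, 12.6 and 11.9 CPM in Ogg1-/- (log2 fold change 3.08, SE 0.26, adjusted p = 6.37e-05). In all 3 copies each Ogg1-/- library was above each WT library. Ccl21b, which is also annotated as a Ccl21 chemokine gene, rose by 10.5-fold (log2 fold change 3.39, adjusted p = 2.41e-05). Ccl21a, in contrast, had 2.34 ± 0.529 CPM in WT and 3.10 ± 0.467 CPM in Ogg1-/- (SD, n = 3 each), the groups overlapped, and the difference did not pass the test (log2 fold change 0.40, SE 0.22, adjusted p = 0.521). Il11ra1, a receptor subunit for interleukin-11 that lies just before the stretch, had 28.4, 30.2 and 29.4 CPM in WT and 32.4, 32.8 and 31.3 CPM in Ogg1-/- and did not pass either (log2 fold change 0.13, adjusted p = 0.262). Il11ra2, just after the stretch, had a log2 fold change of 0.80 (adjusted p = 0.166).

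Gene models without a named function rose most. Gm17167, a processed transcript on chr4:42206998-42235313, had 28.5, 29.7 and 31.7 CPM in WT and 539, 585 and 456 CPM in Ogg1-/-, a rise of 17.6-fold (log2 fold change 4.13, SE 0.23, adjusted p = 2.54e-06). Gm13301, a transcribed pseudogene that overlaps it on chr4:42216908-42235604, had 4.39, 5.19 and 5.77 CPM in WT and 156, 163 and 132 CPM in Ogg1-/- (log2 fold change 4.88, SE 0.36, adjusted p = 2.18e-05). Since these models overlap, their counts are not independent. Gm17081, the pseudogene next to them, had 2.85, 3.05 and 3.55 CPM in WT and 120.4, 127 and 109.9 CPM in Ogg1-/- (log2 fold change 5.24, SE 0.34, adjusted p = 1.00e-05), and Gm10600 had 0.710, 0.440 and 0.809 CPM in WT and 40.3, 44.1 and 37.8 CPM in Ogg1-/- (log2 fold change 5.94, SE 0.54, adjusted p = 1.47e-04). WT libraries were near 0 for Gm10600 and well above 0 for Gm17167, so a low WT level was not shared by all. Gm13307, the gene with the smallest p, had 27.6, 29.7 and 33.4 CPM in WT and 129.8, 150.3 and 130.5 CPM in Ogg1-/- (log2 fold change 2.18, SE 0.10, adjusted p = 1.15e-06), Gm13303 had 2.46, 2.52 and 3.20 CPM in WT and 32.5, 31.7 and 29.2 CPM in Ogg1-/- (log2 fold change 3.51, SE 0.18, adjusted p = 1.15e-06), and Gm5859 had 4.24, 4.79 and 5.19 CPM in WT and 54.3, 54.9 and 51.9 CPM in Ogg1-/- (log2 fold change 3.50, SE 0.18, adjusted p = 1.15e-06). Smaller rises were seen in Fam205a4 (1.88-fold) and Fam205a3 (2.05-fold), members of the Fam205 family, and in Gm10593 (1.66-fold). Gm10593 was the only 1 of the last 3 to lose significance, without Ogg1-/- replicate 2 or without WT replicate 1.

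Uncalled genes of the stretch stood on the same side, with 1 exception. Of 31 tested genes with a GENCODE position between its first and last DEG, 22 were DEGs and 30 had all 3 Ogg1-/- libraries above all 3 WT libraries, against 9.12% of all tested genes. These bounds were set by the DEGs after the values were seen, and all 22 DEGs are among the 30. The comparison with 9.12% therefore applies only to the uncalled genes, of which Gm21980 alone overlapped between groups (log2 fold change -0.05). Ccl21d, placed by RefSeq, was the remaining DEG of the stretch. The log2 fold changes of the 23 DEGs ran from 0.74 to 5.94 with a median of 3.16. The 3 DEGs without a position, Gm10599 (5.53), Gm50470 (5.13) and BX666061.1 (4.19), had values in the same range. A hand-written list of 20 gene copies of this cluster, chosen with earlier results of these data known, had 15 members tested, of which 7 passed, all higher (background 0.182%).

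The other genotypes and the neurons were read beside these values. In NeuN+ nuclei the same Ogg1-/- against WT contrast gave a median log2 fold change of 2.61 over the 23 genes. All 23 were DEGs there too, in the same direction, and none had an interaction (NeuN- effect minus NeuN+ effect) with an adjusted p under 0.05. Within NeuN-, the median against WT was 1.58 in Mutyh-/- and 0.26 in DKO, comparisons that share the WT libraries with this one. Gm13307, for example, had 30.3 ± 2.95 CPM in WT, 136.9 ± 11.7 in Ogg1-/-, 51.4 ± 6.46 in Mutyh-/- and 33.7 ± 2.26 in DKO. DKO mice lack Ogg1 as well, and their value for this gene lay closer to WT than to Ogg1-/-.

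**Figure D2:**
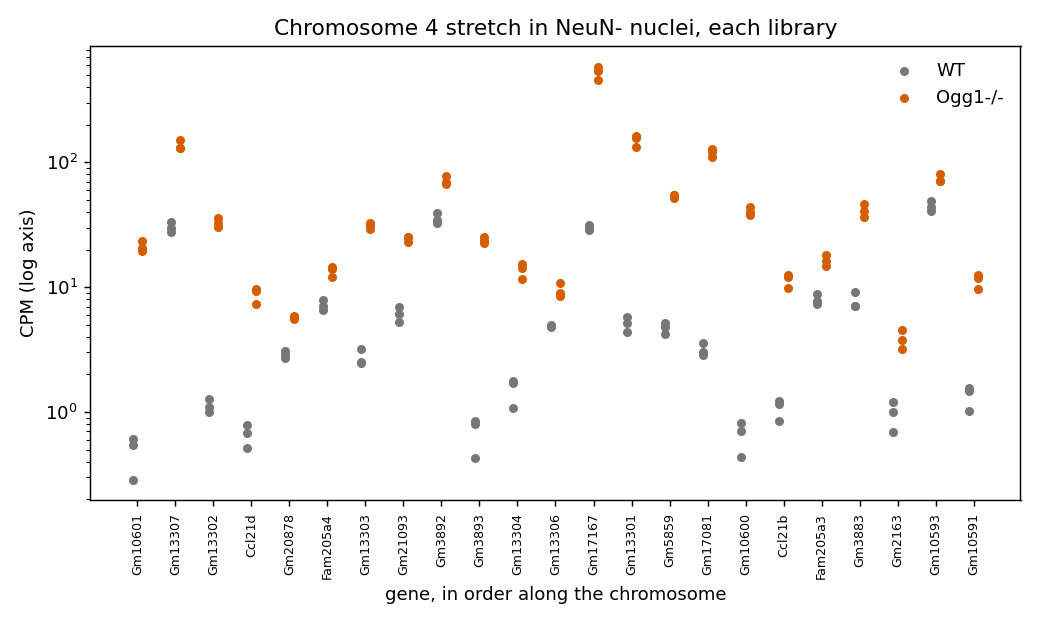
CPM on a log axis in each of 3 WT and 3 Ogg1-/- NeuN- libraries (points) for the 23 DEGs of the chromosome 4 stretch, in order along the chromosome. In every gene the 3 Ogg1-/- points lie above the 3 WT points, from a log2 fold change of 0.74 in Gm10593 to 5.94 in Gm10600.

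The second group lay around Ogg1 itself on chromosome 6. DEGs made up 4.35% of the 138 tested genes within 5 Mb of Ogg1, 3.12% of 96 genes between 5 and 10 Mb and 2.92% of 240 genes between 10 and 20 Mb. The share was 0.199% between 20 and 40 Mb, 0.15% beyond, and 0.168% on the other chromosomes. Within 10 Mb, 9 of 234 tested genes were DEGs (3.85%), 2 higher and 7 lower, and within 20 Mb 16 of 474 (3.38%), 4 higher and 12 lower. The median log2 fold change within 20 Mb was -0.01, so that genes of this interval did not move one way as a whole. The number within 10 Mb ran from 6 to 9 when 1 replicate was left out, and the likelihood ratio test gave 14.

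**Figure D3:**
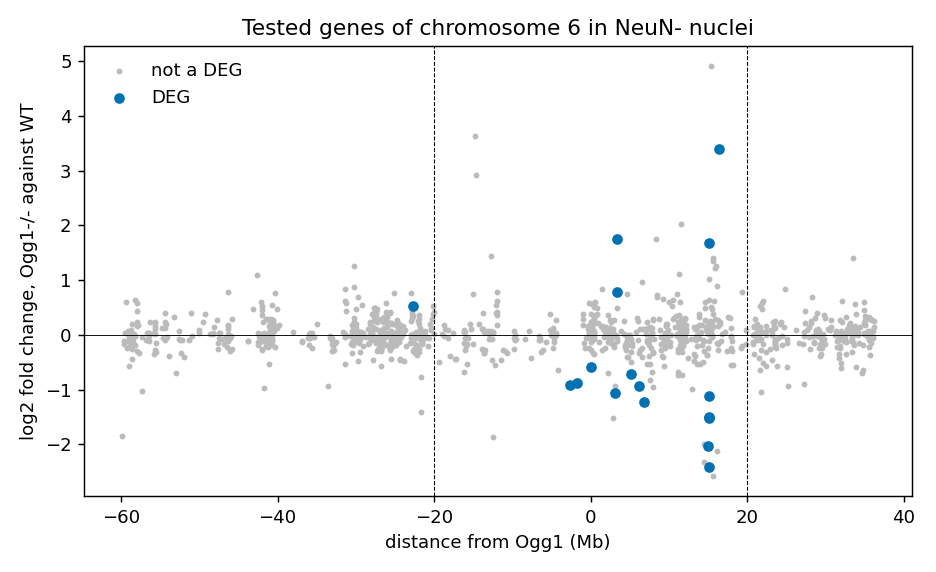
Log2 fold change of Ogg1-/- against WT in NeuN- nuclei for tested genes of chromosome 6, by distance from Ogg1 in Mb (negative towards the start of the chromosome), with DEGs in blue and dashed lines at 20 Mb. The furthest genes, among them the DEG Gpnmb at -64.3 Mb, are not drawn. Of the 18 DEGs on the chromosome, 16 lie between the dashed lines, and 4 of those 16 are above 0.

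The lower genes included a receptor, a kinase and a secreted ligand. Grm7, which encodes the presynaptic glutamate receptor mGluR7 and spans chr6:110645581-111567230, had 485, 452 and 454 CPM in WT and 250.4, 249 and 260.0 CPM in Ogg1-/- (log2 fold change -0.87, SE 0.08, adjusted p = 2.19e-04), and its replicates lay far closer to each other than the groups did. Gm20387, annotated antisense at its 5' end, had 3.68, 3.13 and 2.70 CPM in WT and 1.76, 1.57 and 1.72 CPM in Ogg1-/- (log2 fold change -0.92, SE 0.13, adjusted p = 0.00534), and without Ogg1-/- replicate 2 its adjusted p was 0.0502. Camk1, a kinase activated by calcium and calmodulin that lies on chr6:113334124-113343984 and overlaps the end of Ogg1, had 31.5, 30.3 and 28.1 CPM in WT and 19.4, 20.2 and 20.4 CPM in Ogg1-/- (log2 fold change -0.58, SE 0.08, adjusted p = 0.00398). Grm7 and Camk1 passed the adjusted p in all 14 alternative fits. Wnt5b, a secreted Wnt ligand on chr6:119432531-119544347, had 37.6, 38.2 and 32.8 CPM in WT and 17.6, 17.6 and 21.6 CPM in Ogg1-/- (log2 fold change -0.94, SE 0.10, adjusted p = 6.37e-04).

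Other coding genes there behaved likewise. Ninj2, an adhesion protein of the cell surface on chr6:120093350-120200339, had 216, 168 and 193 CPM in WT and 81.1, 79.7 and 85.3 CPM in Ogg1-/- (log2 fold change -1.23, SE 0.15, adjusted p = 0.00213). Zfp248, a zinc finger gene on chr6:118427319-118455528, had 14.6, 15.0036 and 15.5 CPM in WT and 9.71, 8.56 and 9.18 CPM in Ogg1-/- and the smallest p of the interval (log2 fold change -0.71, SE 0.06, adjusted p = 5.45e-05). Gm44237, a short model of uncertain coding status, had 2.02, 1.81 and 1.83 CPM in WT and 0.861, 0.752 and 1.10 CPM in Ogg1-/- (log2 fold change -1.07, SE 0.15, adjusted p = 0.00737) and lost significance in 3 of its 14 alternatives.

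About 15 Mb from Ogg1, models at 1 locus fell together. Tex52, on chr6:128375456-128385144, had 20.6, 18.0 and 16.5 CPM in WT and 5.72, 6.11 and 7.36 CPM in Ogg1-/- (log2 fold change -1.53, SE 0.16, adjusted p = 4.08e-04). Gm44596, which overlaps Tex52 on the same strand, had 45.3, 40.2 and 35.5 CPM in WT and 17.3, 18.4 and 20.3 CPM in Ogg1-/- (log2 fold change -1.11, SE 0.11, adjusted p = 4.08e-04), and Gm15862, annotated on the other strand, had 29.6, 25.3 and 21.5 CPM in WT and 7.72, 9.25 and 9.98 CPM in Ogg1-/- (log2 fold change -1.51, SE 0.16, adjusted p = 5.61e-04). Gm43965, inside the same interval, had 2.52, 1.88 and 1.99 CPM in WT and 0.321, 0.307 and 0.583 CPM in Ogg1-/- (log2 fold change -2.41, SE 0.22, adjusted p = 1.50e-04). These 4 models share bases of the genome, their counts may hold the same reads, and they count as 1 locus rather than as 4 findings. Gm44371 just beside them was at 0.623, 0.698 and 0.635 CPM in WT and 0.146, 0.0767 and 0.257 CPM in Ogg1-/- (log2 fold change -2.03, SE 0.33, adjusted p = 0.0197), a level of few counts, and lost significance in 5 of its 13 alternatives.

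The 4 higher genes of the interval were low or moderate in level. Rassf4, a Ras-association domain gene on chr6:116633008-116673952, had 18.9, 18.3 and 17.0 CPM in WT and 33.5, 31.8 and 27.7 CPM in Ogg1-/- (log2 fold change 0.78, SE 0.12, adjusted p = 0.0112) and lost significance in 5 of its 14 alternatives. Depp1, known as a target of FoxO factors and lying within the span of Rassf4, had 0.983, 0.925 and 0.648 CPM in WT and 3.31, 3.10 and 2.14 CPM in Ogg1-/- (log2 fold change 1.74, SE 0.24, adjusted p = 0.00496). Pzp, which encodes an alpha-macroglobulin protease inhibitor, had 2.40, 2.17 and 2.12 CPM in WT and 7.42, 8.27 and 5.76 CPM in Ogg1-/- (log2 fold change 1.68, SE 0.26, adjusted p = 0.0124) and lost significance in 5 of its 14 alternatives. Klri1, a lectin-like receptor of natural killer cells, had 0.109, 0.0607 and 0.212 CPM in WT and 1.25, 1.30 and 1.58 CPM in Ogg1-/- (log2 fold change 3.39, SE 0.37, adjusted p = 6.37e-04). Klri1 was close to 0 in WT. No group of these 4 genes overlapped the other.

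The DKO also lacks Ogg1, and both other genotypes of this fraction were compared with the same WT libraries. Log2 fold changes in DKO were -0.59 for Grm7, -0.58 for Camk1, -0.99 for Wnt5b, -0.93 for Ninj2, -1.52 for Tex52 and 3.44 for Klri1. In Mutyh-/- they were -0.22, -0.17, -0.38, 0.30, -0.03 and -0.22. Over all 16 DEGs of the interval the Mutyh-/- values ran from -0.38 to 1.17. The highest was that of Pzp (adjusted p = 0.105), which had 1.66 in DKO. In NeuN+ nuclei 13 of the 16 genes were tested, all 13 had the same direction, 3 were DEGs, and 5 had an interaction with an adjusted p under 0.05.

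Grm7 was among those 5. Its log2 fold change was -0.87 in NeuN- and -0.16 in NeuN+ (adjusted p = 0.150), and the difference between the 2 effects was -0.72 (interaction adjusted p = 0.00252, and 0.0548 without Ogg1-/- replicate 2). It stood at 463.5 ± 18.7 CPM in WT and 253.1 ± 6.06 in Ogg1-/- NeuN-, against 1574 ± 99.5 and 1406 ± 54.9 CPM in NeuN+. Wnt5b likewise had -0.94 in NeuN- and -0.10 in NeuN+ (interaction -0.85, adjusted p = 0.00252). The same test passed for Gm20387 (-0.87, adjusted p = 0.0161), Gm44596 (-0.97, adjusted p = 0.00366) and Gm15862 (-1.16, adjusted p = 0.0410), but not in several fits without 1 replicate, where the adjusted p of Gm20387 reached 0.245, that of Gm44596 0.0691 and that of Gm15862 0.422. The interaction of Camk1 did not pass (-0.58 in NeuN- and -0.47 in NeuN+, interaction adjusted p = 0.891).

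On X and Y, 6 DEGs fell and none rose. They cluster near the chromosome ends where X and Y pair in meiosis, a region with shared and repeated sequence, so reads may be assigned to either chromosome. Gm15247 and G530011O06Rik, annotated at the Mid1 locus on X, had 5.01, 4.87 and 5.09 CPM in WT and 0.933, 0.690 and 0.840 CPM in Ogg1-/- (log2 fold change -2.60, SE 0.17, adjusted p = 1.10e-05) and 10.0256, 11.8 and 11.3 CPM in WT and 3.40, 3.11 and 3.21 CPM in Ogg1-/- (log2 fold change -1.77, SE 0.13, adjusted p = 2.18e-05). Their Ogg1-/- libraries were close to each other and far from WT. Mid1, a ubiquitin ligase that binds microtubules, had 82.3, 85.8 and 92.7 CPM in WT and 56.1, 61.6 and 60.5 CPM in Ogg1-/-, without overlap, but did not pass the test (log2 fold change -0.55, SE 0.15, adjusted p = 0.172). In NeuN+ its log2 fold change was -2.36 (adjusted p = 1.26e-10), and the effects in the 2 fractions differed (interaction 1.80, adjusted p = 1.44e-05).

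Erdr1 and Gm47283 were more uneven between replicates. Erdr1 had 112, 109.5 and 94.9 CPM in WT and 24.6, 32.2 and 7.14 CPM in Ogg1-/- (log2 fold change -2.30, SE 0.37, adjusted p = 0.0184), and Gm47283, on chrY:90784738-90816464, had 293, 299 and 287 CPM in WT and 46.1, 56.5 and 12.8 CPM in Ogg1-/- (log2 fold change -2.92, SE 0.40, adjusted p = 0.00489). Ogg1-/- replicate 3 was the lowest library in both, yet all 3 were below WT. Mid1-ps1, a pseudogene of Mid1 on Y, had 33.8, 39.3 and 37.4 CPM in WT and 7.25, 15.5 and 6.95 CPM in Ogg1-/- (log2 fold change -1.90, SE 0.30, adjusted p = 0.0141). Erdr1 lost significance in 3 of its 14 alternatives, Mid1-ps1 in 4 of its 14 alternatives and Gm15726, an antisense model at Mid1 (-2.65), in 7 of its 14 alternatives. All 6 genes were DEGs in the same direction in NeuN+. In DKO against the same WT libraries, Erdr1 stood at -0.50 and Gm15247 at -2.23, and in Mutyh-/- at 0.00 and -2.45.

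Chromosome 14 held 8 DEGs, of which 6 were lower. Between 72 and 80 Mb, bounds set after the values were seen, 8 of 95 tested genes passed the adjusted p, against 0.342% of all. Esd, the esterase that hydrolyses S-formylglutathione, lies on chr14:74732297-74750765 and had 10.4, 10.9 and 10.1 CPM in WT and 5.22, 5.36 and 5.68 CPM in Ogg1-/- (log2 fold change -0.95, SE 0.09, adjusted p = 1.65e-04). Lacc1, a metabolic enzyme of macrophages, had 11.4, 9.80 and 8.17 CPM in WT and 4.29, 3.82 and 4.92 CPM in Ogg1-/- (log2 fold change -1.17, SE 0.17, adjusted p = 0.00743) and lost significance without Ogg1-/- replicate 1 or 2. Epsti1, an interferon-induced gene, had 14.9, 14.7 and 14.0341 CPM in WT and 8.72, 7.30 and 8.42 CPM in Ogg1-/- (log2 fold change -0.83, SE 0.09, adjusted p = 4.53e-04). Fndc3a, a fibronectin type III domain protein, had 96.3, 94.7 and 94.8 CPM in WT and 77.2, 77.2 and 78.2 CPM in Ogg1-/- (log2 fold change -0.30, adjusted p = 0.00337), which was too small for a DEG. All 4 fell by more than the spread between replicates.

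Other genes of the same interval rose. Enox1, an oxidase of the plasma membrane that lies between Lacc1 and Epsti1, had 554, 524 and 557 CPM in WT and 761, 751 and 718 CPM in Ogg1-/- (log2 fold change 0.45, SE 0.05, adjusted p = 5.98e-04), and Gm49200, a long noncoding RNA, had 0.972, 0.713 and 0.672 CPM in WT and 3.02, 3.74 and 3.84 CPM in Ogg1-/- (log2 fold change 2.16, SE 0.25, adjusted p = 0.00139). Elsewhere on the chromosome, Gm10248 had 0.961, 0.774 and 0.697 CPM in WT and 3.25, 3.28 and 3.34 CPM in Ogg1-/- (log2 fold change 2.01, SE 0.14, adjusted p = 2.03e-05). Against the same WT libraries, Gm10248 was also higher in Mutyh-/- (1.69, adjusted p = 4.09e-04) and in DKO (1.90, adjusted p = 1.04e-04). Esd fell in NeuN+ too (-1.08, adjusted p = 1.13e-04), as did Lacc1 (-1.57, adjusted p = 0.00103). Epsti1 had 0.61 in NeuN+ (adjusted p = 0.0934), from low mean levels of 0.807 CPM in WT and 1.24 CPM in Ogg1-/-. Its effects in the 2 fractions differed by -1.46 (interaction adjusted p = 1.44e-04). Enox1 had -0.04 in NeuN+ (interaction adjusted p = 0.00645). In DKO, compared with the same WT libraries, the values were -0.14 for Esd, -0.24 for Lacc1, 0.08 for Epsti1 and -0.02 for Enox1.

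A smaller group lay on chromosome 7. Between 30 and 36 Mb, again bounds set after the values were seen, 7 of 131 tested genes passed the adjusted p, against 0.342% of all, 5 of them higher. Slc7a10, the transporter of serine and glycine known as Asc-1, had 81.4, 81.5 and 84.0 CPM in WT and 121, 127 and 113 CPM in Ogg1-/- (log2 fold change 0.55, SE 0.07, adjusted p = 0.00294), and its neighbour Wdr88 had 0.917, 2.21 and 0.648 CPM in WT and 9.23, 7.73 and 12.5 CPM in Ogg1-/- (log2 fold change 2.99, SE 0.38, adjusted p = 0.00309). Both passed the adjusted p in all 14 alternative fits. Lgi4, a secreted protein of glia, had 29.7, 29.5 and 33.7 CPM in WT and 41.6, 46.5 and 42.8 CPM in Ogg1-/- (log2 fold change 0.50, SE 0.08, adjusted p = 0.0175), just under the fold limit of a DEG, while Sbsn, an epidermal secreted protein, fell from 8.56, 6.27 and 6.84 CPM in WT to 4.14, 4.17 and 3.36 CPM in Ogg1-/- (log2 fold change -0.89, SE 0.14, adjusted p = 0.0139). Lgi4 lost significance in 4 of its 14 alternatives and Sbsn in 4 of its 14 alternatives.

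**Figure D4:**
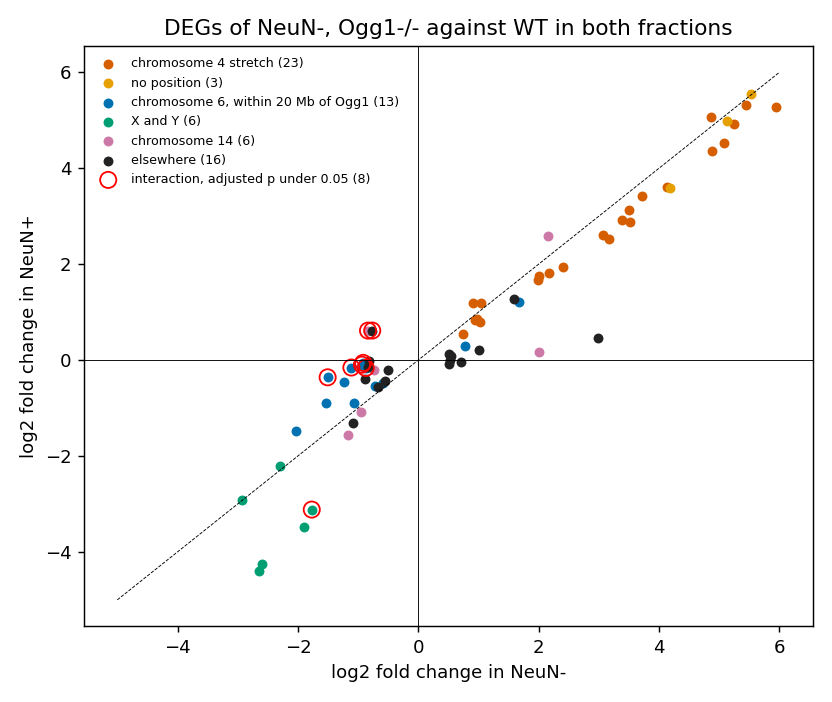
Log2 fold change of Ogg1-/- against WT in NeuN- (horizontal) and NeuN+ (vertical) for the 67 of 73 DEGs tested in both fractions, coloured by position, with equal effects on the dashed line and red rings for the 8 genes with an interaction. Genes of the chromosome 4 stretch lie near the line, and 62 of the 67 have the same sign in both fractions.

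Over all 73 DEGs, 67 were tested in NeuN+, 62 had the same direction and 41 were DEGs in that direction. The NeuN+ contrast has its own libraries, of whose tested genes 0.574% were DEGs. Both fractions were collected in the same sort, however, so that NeuN- and NeuN+ libraries may come from the same animals and are not independent evidence of a direction. The interaction passed in 18 of 33523 genes (0.0537%), 8 of them DEGs of NeuN-, and 2377 genes had an unadjusted interaction p under 0.05 (7.09%). The count of 18 became 9 without Ogg1-/- replicate 2, 10 without WT replicate 1 and 44 by the likelihood ratio test. The labels give different sequencing lanes for the 2 fractions, and lane and fraction cannot be told apart.

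The 4 DEGs of this chromosome 7 interval are counted among the 17 that lay elsewhere, 9 higher and 8 lower. Of the rest of these 17, Heatr5a, a HEAT repeat protein of membrane traffic on chr12:51875871-51971321, had 45.0, 44.8 and 45.2 CPM in WT and 28.7, 27.5 and 28.6 CPM in Ogg1-/-, with replicates of each group within 2 CPM of each other (log2 fold change -0.67, SE 0.06, adjusted p = 1.76e-04). Uchl1, a ubiquitin hydrolase of neurons, had 14.6, 15.2 and 15.3 CPM in WT and 11.1, 10.5 and 10.2 CPM in Ogg1-/- (log2 fold change -0.50, SE 0.07, adjusted p = 0.00421). Both passed the adjusted p in all 14 alternative fits. Slc5a11, a sodium-coupled inositol transporter, had 18.6, 14.4 and 15.0304 CPM in WT and 9.74, 9.61 and 8.97 CPM in Ogg1-/- (log2 fold change -0.76, SE 0.11, adjusted p = 0.00850). Its value in NeuN+ was 0.62 (adjusted p = 0.300), from low mean levels of 0.473 CPM in WT and 0.729 CPM in Ogg1-/- (interaction -1.38, adjusted p = 0.0410). The interaction of Slc5a11 was lost in 5 of the 6 fits without 1 replicate, with an adjusted p of up to 0.350 without Ogg1-/- replicate 3. Significance in NeuN- was lost without Ogg1-/- replicate 2 (adjusted p = 0.0520). Cd59a, which shields cells from complement, had 5.09, 4.79 and 5.21 CPM in WT and 2.23, 2.67 and 2.25 CPM in Ogg1-/- (log2 fold change -1.08, SE 0.17, adjusted p = 0.0178), and Gpnmb, a glycoprotein of lysosome-rich phagocytes, had 9.18, 8.74 and 6.76 CPM in WT and 5.10, 4.93 and 3.84 CPM in Ogg1-/- (log2 fold change -0.83, SE 0.15, adjusted p = 0.0429). Cd59a and Gpnmb each lost significance in 6 of 14 alternatives.

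Of the higher genes outside the regions, Mpp7, a scaffold of cell polarity, had 15.6, 18.9 and 19.8 CPM in WT and 36.3, 36.2 and 36.8 CPM in Ogg1-/- (log2 fold change 1.01, SE 0.16, adjusted p = 0.0141). Its 3 Ogg1-/- libraries lay within 1 CPM of each other. Celrr, a long noncoding RNA, had 47.9, 50.6 and 56.1 CPM in WT and 75.0, 77.4 and 67.3 CPM in Ogg1-/- (log2 fold change 0.51, SE 0.07, adjusted p = 0.00850), and Gm12239 had 75.7, 72.2 and 72.4 CPM in WT and 103, 109 and 103 CPM in Ogg1-/- (log2 fold change 0.52, SE 0.08, adjusted p = 0.0124). Slc25a21, a mitochondrial carrier of oxodicarboxylates, had 9.58, 12.3 and 9.02 CPM in WT and 16.7, 16.1 and 17.7 CPM in Ogg1-/- (log2 fold change 0.71, SE 0.13, adjusted p = 0.0372). Mpp7 and Celrr lost significance in 4 of 14 alternatives each, Gm12239 in 5 and Slc25a21 in 6. The DKO values of these 4 genes were 1.21, 0.25, 0.21 and 0.47. In Mutyh-/- against the same WT libraries they were 0.86 (adjusted p = 0.0469), 0.07, -0.15 and 0.08, of which only that of Mpp7 passed.

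Markers of astrocytes lay mostly above 0. Of the 10 astrocyte markers, 9 had a log2 fold change above 0, 6 had an unadjusted p under 0.05 (background 5.75% higher) and 1 passed the test (background 0.182% higher), with a median of 0.28, compared with 0.00 and 50.2% above 0 over all genes. Aldh1l1, the folate enzyme used as a marker of all astrocytes, had 82.3, 103 and 105 CPM in WT and 142, 144 and 130.2 CPM in Ogg1-/- (log2 fold change 0.52, SE 0.10, adjusted p = 0.0483), and significance was lost in 8 of its 14 alternatives. It lies on chromosome 6, at -22.7 Mb from Ogg1. Gfap, the intermediate filament of astrocytes, had 37.9, 37.7 and 45.7 CPM in WT and 54.7, 64.6 and 54.3 CPM in Ogg1-/-, without overlap, and just missed the threshold (log2 fold change 0.52, SE 0.10, adjusted p = 0.0507). Slc4a4, the sodium bicarbonate cotransporter, had 495, 519 and 563 CPM in WT and 743, 779 and 637 CPM in Ogg1-/- (log2 fold change 0.45, SE 0.12, adjusted p = 0.153). The summed level of the 10 markers ran from 3648 to 4317 CPM in WT and from 4307.5 to 5403 CPM in Ogg1-/-, so that the groups overlapped narrowly. In bulk nuclei, more nuclei of a type and more RNA per nucleus cannot be told apart.

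Transporters and channels of astrocytes lay on the same side, with 14 of 15 above 0, a median of 0.22 and 1 past the test. Slc6a11, the GABA transporter GAT3 of astrocytes, had 154, 162 and 169.7 CPM in WT and 212, 223 and 194 CPM in Ogg1-/- (log2 fold change 0.37, SE 0.06, adjusted p = 0.0267), although 4 of the 6 fits without 1 replicate took the adjusted p above 0.05, up to 0.166. This gene lies on chromosome 6 at 0.80 Mb from Ogg1, in the interval where DEGs were frequent. The part of position in its value was not tested. The list of markers and this list share members. Slc38a3, a glutamine transporter, had 75.1, 85.2 and 92.5 CPM in WT and 130.3, 132 and 109 CPM in Ogg1-/- (adjusted p = 0.178). The groups of libraries stayed apart in this gene, but it did not pass. Of the 10 tested genes of the reactive astrocyte list, none passed, and the summed level, in which Gfap is counted too, was 141.4 to 155.2 CPM in WT and 177.8 to 193.7 CPM in Ogg1-/-.

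Markers of oligodendrocytes lay below 0, and none passed the test. All 10 had a log2 fold change below 0 (background 49.8%), 7 without overlap (background 10.7% lower), with a median of -0.27. Cnp, an enzyme of myelin, had 412, 386 and 353 CPM in WT and 288, 249 and 273 CPM in Ogg1-/- (log2 fold change -0.51, SE 0.13, adjusted p = 0.160). Mbp, the cytoplasmic myelin protein, overlapped between groups (-0.11, adjusted p = 0.681). The markers summed to 7542 to 8392 CPM in WT and 6348 to 6976 CPM in Ogg1-/-. Of the 20 genes of the myelin list, 19 were below 0 with a median of -0.22, and Trf, which carries iron, came nearest to the threshold (log2 fold change -0.39, SE 0.08, adjusted p = 0.0795). With the 6 libraries fitted alone, 4 oligodendrocyte markers and 5 myelin genes passed, all lower. Without WT replicate 1 the medians were -0.17 and -0.15.

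Precursor, microglial, endothelial and pericyte markers had medians closer to 0 than those of astrocytes and oligodendrocytes. The 6 precursor markers, among them Pdgfra (-0.10, adjusted p = 0.632), had a median of -0.10, the 10 microglial markers one of -0.08 and the 7 endothelial markers one of -0.14, with no gene past the test. All 10 microglial markers were below 0 (background 49.8%), none of them without overlap. Of the 7 endothelial markers, 6 were below 0, and 3 were lower without overlap (background 10.7% lower). Pericyte and smooth muscle markers had a median of -0.15, and none of the 6 passed. Of these, 4 were below 0, and 3 were lower and 1 higher without overlap. Pdgfrb was 1 of the 2 above 0 (0.20, adjusted p = 0.2001). Medians lay further from 0 for fibroblast (0.27), ependymal (0.43), border macrophage (0.32) and choroid plexus (0.61) markers, with no gene past the test. Fibroblast, ependymal and border macrophage markers had few counts. Choroid plexus markers, led by Ttr, summed to 10.3, 100.5 and 107.8 CPM in the Ogg1-/- libraries and to between 37.3 and 67.3 CPM in WT, so that 1 Ogg1-/- library lay below all WT libraries and the others above them. The part of these cell types in the differences above was not tested.

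**Figure D5:**
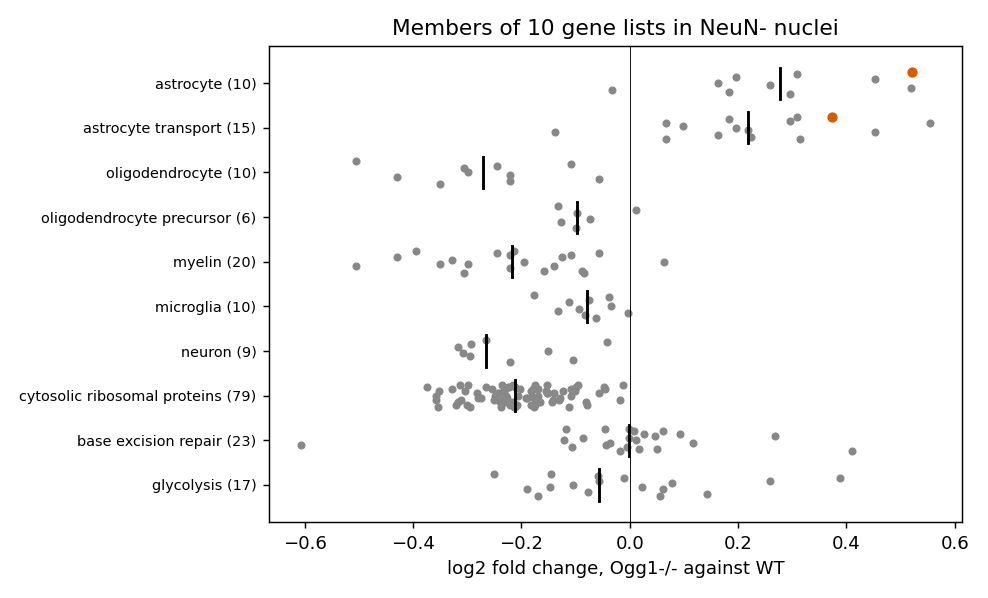
Log2 fold change of Ogg1-/- against WT in NeuN- nuclei for the members (points) of 10 gene lists, with the list's median as a black bar, the number tested in parentheses and genes with an adjusted p under 0.05 in orange. Astrocyte lists lie to the right with medians of 0.28 and 0.22, the oligodendrocyte, myelin, neuron and ribosomal lists to the left with medians between -0.27 and -0.21, and base excision repair around 0.

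Neuronal transcripts, present at a low level in this fraction, lay below 0 without a call. All 9 neuronal markers were below 0 (background 49.8%), 3 without overlap (background 10.7% lower), with a median of -0.27, none passed, and their sum ran from 666 to 746 CPM in WT and from 575 to 653 CPM in Ogg1-/-. Camk2a, a kinase of excitatory synapses, had 139, 149 and 158 CPM in WT and 119, 134 and 118 CPM in Ogg1-/- (adjusted p = 0.187), and Rbfox3, which encodes the NeuN antigen, had 87.5, 101 and 106 CPM in WT and 68.2, 91.5 and 78.5 CPM in Ogg1-/- (adjusted p = 0.405). Among the 36 genes that passed the adjusted p with an absolute log2 fold change of at most 0.5, 17 were higher and 19 lower. Of the lower genes, 3 are described here, picked after their values were seen. Syp, a protein of synaptic vesicles, had 30.9, 32.2 and 32.7 CPM in WT and 25.3, 25.8 and 26.4 CPM in Ogg1-/- (log2 fold change -0.30, SE 0.05, adjusted p = 0.0274). Cplx1, which clamps vesicle fusion, had 15.3, 16.2 and 16.7 CPM in WT and 13.2, 13.5 and 13.0 CPM in Ogg1-/- (log2 fold change -0.28, SE 0.05, adjusted p = 0.0483), and Dnm1, the dynamin of endocytosis, had 99.4, 98.5 and 104 CPM in WT and 84.0, 88.4 and 84.4 CPM in Ogg1-/- (log2 fold change -0.24, SE 0.04, adjusted p = 0.0483). Syp lost significance in 6 of its 14 alternatives, Cplx1 in 11 and Dnm1 in 10.

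The same 36 genes included others of interest, all named after their values were seen. Cntnap2, an adhesion protein of the axon, had 278, 302 and 306 CPM in WT and 199, 218 and 215 CPM in Ogg1-/- (log2 fold change -0.49, SE 0.09, adjusted p = 0.0392), and Macrod2, a hydrolase of ADP-ribose, had 461, 469.8 and 470.0 CPM in WT and 378, 391 and 383 CPM in Ogg1-/- (log2 fold change -0.28, SE 0.04, adjusted p = 0.0160). Wnk1, a kinase of ion transport between Wnt5b and Ninj2 on chromosome 6, had 502, 465 and 467 CPM in WT and 368, 349.9 and 362 CPM in Ogg1-/- (log2 fold change -0.41, SE 0.07, adjusted p = 0.0186). On the higher side, Ap2b1, a subunit of the clathrin adaptor, had 81.6, 83.3 and 86.6 CPM in WT and 110.3, 106 and 108 CPM in Ogg1-/- (log2 fold change 0.36, SE 0.04, adjusted p = 0.00225), and Ephx2, an epoxide hydrolase, had 20.5, 22.8 and 21.8 CPM in WT and 31.5, 30.2 and 29.8 CPM in Ogg1-/- (log2 fold change 0.49, SE 0.07, adjusted p = 0.00737). Of the 19 lower genes, 11 had a higher mean CPM in WT NeuN+ than in WT NeuN-, as did 3 of the 17 higher genes and 41.1% of all tested genes. In Mutyh-/- against the same WT libraries, Ap2b1 (0.39, adjusted p = 0.00300), Macrod2 (-0.33, adjusted p = 0.00750) and Cplx1 (-0.40, adjusted p = 0.00583) also passed. Syp, Dnm1, Cntnap2, Wnk1 and Ephx2 did not pass there. Of these 36 genes, 4 (Enox1, Dach2, Ap2b1 and Fndc3a) passed the adjusted p in each alternative fit and 32 lost it in 1 or more. The part of neuronal nuclei in these differences was not tested.

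No gene of the repair pathway itself was called. None of the 23 base excision repair genes passed the test, with a median of 0.00 and 11 above and 12 below 0. The glycosylases Neil1, which removes oxidised pyrimidines, and Nthl1 had 9.38, 8.59 and 8.23 CPM in WT and 7.74, 7.92 and 9.91 CPM in Ogg1-/- (adjusted p = 0.943) and 4.89, 4.82 and 5.06 CPM in WT and 4.64, 5.45 and 5.18 CPM in Ogg1-/- (adjusted p = 0.893). Ung, the uracil glycosylase, had 0.339, 0.334 and 0.473 CPM in WT and 0.190, 0.322 and 0.240 CPM in Ogg1-/- (log2 fold change -0.61, SE 0.26, adjusted p = 0.386), at a level of few counts, and Parp1, the sensor of strand breaks, had 41.7, 43.0 and 42.3 CPM in WT and 40.4, 38.5 and 38.1 CPM in Ogg1-/- (log2 fold change -0.12, SE 0.04, adjusted p = 0.318). None of 24 antioxidant genes passed either (median -0.01), among them Nfe2l2 (0.14, adjusted p = 0.293) and Prdx6 (0.26, adjusted p = 0.335).

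Ribosomal protein genes shared a direction without a call. All 79 were below 0 (background 49.8%), 58 without overlap (background 10.7% lower) and 38 with an unadjusted p under 0.05 (background 6.08% lower), with a median of -0.21, but none passed the adjusted p. Rpl3 had 43.2, 42.3 and 40.4 CPM in WT and 35.3, 31.7 and 34.4 CPM in Ogg1-/- (log2 fold change -0.31, SE 0.06, adjusted p = 0.0586), and Rps6 had 24.6, 23.1 and 22.8 CPM in WT and 19.8, 18.0 and 17.5 CPM in Ogg1-/- (log2 fold change -0.35, SE 0.08, adjusted p = 0.111). Their summed level was 1274 to 1292 CPM in WT and 1087 to 1160 CPM in Ogg1-/-. Such genes tend to vary together between samples, so 79 genes of 1 direction are not 79 independent observations. With the 6 libraries alone, 3 passed, all lower.

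Lists on metabolism and chromatin held no call. None passed of 17 glycolysis genes (median -0.06), of which Eno2, the neuronal enolase, had -0.25 (adjusted p = 0.190), of 52 nuclear genes of the respiratory chain (-0.04), led by Atp5o (0.18, adjusted p = 0.231), or of 20 genes of cholesterol synthesis (0.01), led by Hmgcs1 (-0.23, adjusted p = 0.220). Of the 52 respiratory chain genes, 38 were below 0 (background 49.8%). Without overlap, 12 of them were lower and 2 higher, as were 6 and 2 of the glycolysis genes (background 10.7% lower, 9.12% higher). The 13 genes of Polycomb repressive complex 2 and its partners had a median of -0.01, with Epop at -0.58 (adjusted p = 0.251) and Jarid2 at -0.11 (adjusted p = 0.371). Of these 13, 3 were lower with an unadjusted p under 0.05 (background 6.08% lower) and 0 higher. The 14 genes of DNA methylation had a median of 0.01, with Dnmt1 at -0.12 (adjusted p = 0.388). None of these differed beyond the test's threshold, which does not show that they were equal. The 13 mitochondrially encoded genes were not analysed here.

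Signalling lists had single members past the test. Of 22 glutamate receptor genes only Grm7 passed, and Grin1 came nearest of the others, with 32.3, 36.9 and 35.5 CPM in WT and 22.3, 26.4 and 26.6 CPM in Ogg1-/- (log2 fold change -0.47, SE 0.09, adjusted p = 0.0548), followed by Grin2c (0.46, adjusted p = 0.114). Of 13 calmodulin-dependent kinases only Camk1 passed, though 11 were below 0 (background 49.8%), with a median of -0.18. With an unadjusted p under 0.05, 6 of them were lower (background 6.08% lower) and 1 higher. Of 27 interferon response genes only Epsti1 passed, against a median of 0.04, while Usp18, another interferon-induced gene, had -0.32 (adjusted p = 0.222) and Rsad2 0.58 (adjusted p = 0.240). None of 33 cAMP signalling genes passed, led by Rapgef3 (0.24, adjusted p = 0.181), nor any of 19 genes of microglial activation, among them Clec7a (-2.12, adjusted p = 0.139) at a level under 1 CPM, or of 12 oligodendrocyte lineage factors, led by Olig1 (-0.26, adjusted p = 0.225).

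Lists that can follow handling or time of day did not pass either. The 17 immediate early genes had a median of -0.15, with Arc at -0.34 (adjusted p = 0.230) and Jund at -0.42 (adjusted p = 0.233). The 17 clock genes had a median of 0.08, with 9 above and 8 below 0. Of these genes, 4 were higher with an unadjusted p under 0.05 (background 5.75% higher) and 0 lower. Their summed level did not overlap, with 2801 to 3300 CPM in WT and 3381 to 3850 CPM in Ogg1-/-. Npas2, which varied widely between replicates, had 47.7, 56.6 and 75.1 CPM in WT and 108, 120.2 and 69.0 CPM in Ogg1-/- (adjusted p = 0.244). Medians were -0.01 over 13 heat shock genes, with Hspa1a at 2.42, 3.16 and 5.78 CPM in WT and 9.58, 4.25 and 2.09 CPM in Ogg1-/-, 0.07 over 12 glucocorticoid response genes and -0.11 over 11 nuclear long noncoding RNAs, led by Miat (-0.30, adjusted p = 0.206). Of 8 genes reported to differ between C57BL/6 substrains none passed, and Nnt had 59.6, 58.4 and 56.5 CPM in WT and 49.6, 50.0 and 51.3 CPM in Ogg1-/- (log2 fold change -0.21, SE 0.05, adjusted p = 0.141).

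The study names 6 genes in NeuN- nuclei, without giving them as DEGs of Ogg1-/-. Rbfox3 and Oaf served there as examples of chromatin in the sorted fractions. For Grm7, Bdnf, Npr3 and Wnt6 it set RNA beside a histone mark or DNA methylation. Only Grm7 of these 6 genes passed in this contrast. Oaf had 20.9, 22.7 and 24.8 CPM in WT and 28.3, 29.1 and 27.6 CPM in Ogg1-/- without overlap (log2 fold change 0.31, SE 0.07, adjusted p = 0.0991), Bdnf, a neurotrophin, had 2.01, 3.34 and 3.40 CPM in WT and 1.95, 2.59 and 1.73 CPM in Ogg1-/- (log2 fold change -0.47, SE 0.25, adjusted p = 0.506), and Npr3, the clearance receptor of natriuretic peptides, had 5.12, 5.92 and 6.76 CPM in WT and 5.19, 6.75 and 8.28 CPM in Ogg1-/- (log2 fold change 0.18, SE 0.28, adjusted p = 0.865). Wnt6, a Wnt ligand, stayed below 1 CPM in each library (0.48, adjusted p = 0.781).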

How the data were processed

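Read pairs were aligned to GRCm38 with HISAT2 2.1.0, and the authors deposited raw counts per gene (Ensembl release 102, featureCounts, proper pairs, no normalization) for 55254 genes by symbol. Members, gene lists and tests were chosen with earlier results of these data known. Counts of the 12 NeuN- libraries (4 genotypes) were fitted together in R 4.3.3 with edgeR 4.0.16 (filterByExpr, TMM, quasi-likelihood test, Benjamini-Hochberg adjustment), and the interaction in all 24 libraries (33523 genes). Alternatives were the likelihood ratio test, DESeq2 1.42.0, glmTreat, other scalings, filters and thresholds, the 6 libraries alone, the replicate block and fits without 1 replicate. On simulated counts of this comparison (31385 genes), 97.7% of 87 genes changed 2-fold and 9 of 31185 unchanged genes were called. The changed genes were drawn only from those above the median level, with the spread fitted to these libraries. The share found therefore does not cover genes of low level. Positions came from GENCODE vM21 by symbol (96.7% of tested genes), otherwise RefSeq. The rule for names took Ogg1, Mutyh, Camk1, genes the study names, the 15 DEGs of smallest p per direction without overlap, list members past the test (otherwise up to 3 of smallest p or defining members), DEGs within 10 Mb of Ogg1 and DEGs with an interaction. Other names, such as Slc7a10, Lacc1, Enox1, Syp, Gpnmb, Erdr1 and Ccl21a, were chosen after their values were seen.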

Additional observations from a re-analysis of the deposited data

Results flagged for a closer look

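For 11 named genes the effect of Ogg1-/- against WT differed between NeuN- and NeuN+ nuclei by the interaction term of the fit over all 24 libraries. The difference is the NeuN- effect minus the NeuN+ effect on the log2 scale. It was negative for Epsti1 (-1.46, from -0.83 in NeuN- and 0.61 in NeuN+), Slc5a11 (-1.38, from -0.76 and 0.62), Gm15862 (-1.16, from -1.51 and -0.36), Gm44596 (-0.97, from -1.11 and -0.16), Gm20387 (-0.87, from -0.92 and -0.06), Wnt5b (-0.85, from -0.94 and -0.10) and Grm7 (-0.72, from -0.87 and -0.16). It was positive for Mid1 (1.80, from -0.55 and -2.36) and G530011O06Rik (1.34, from -1.77 and -3.12), where RNA fell more in NeuN+, and for Als2cl (0.81, from 0.38 and -0.44) and Enox1 (0.48, from 0.45 and -0.04). Adjusted p ran from 1.44e-05 (Mid1) to 0.0457 (Als2cl). Mean levels in NeuN+ were low for Epsti1 (0.807 CPM in WT, 1.24 CPM in Ogg1-/-), Slc5a11 (0.473 and 0.729) and Als2cl (0.923 and 0.687). The NeuN+ values of these 3 genes did not pass the test, so a reversed effect in NeuN+ is not shown. The value for Grm7 had an adjusted p of 0.0548 without replicate 2 of Ogg1-/-, and that for Slc5a11 one of 0.350 without replicate 3 of Ogg1-/-. That of G530011O06Rik was 0.316 without replicate 1 of Ogg1-/-.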

How the results depend on the processing

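The 73 DEGs (41 higher, 32 lower) became 168 (90 and 78) by the likelihood ratio test, 169 (100 and 69) by DESeq2 and 147 (83 and 64) in the fit of the 6 libraries alone. An absolute log2 fold change above 1 left 47 (16 lower), no fold limit gave 109 (51 lower), and an adjusted p under 0.01 left 21 lower. Fits without 1 replicate gave 50 to 74 DEGs, 31 to 50 higher and 19 to 25 lower. Without the chromosome 4 stretch and unplaced DEGs, 40 (12 higher) were left, and without the 20 Mb around Ogg1, X and Y too, 19 (8 and 11). DEGs within 10 Mb of Ogg1 numbered 9, 14 by the likelihood ratio test, 16 within 20 Mb and 6 to 9 without 1 replicate. The interaction passed in 18 genes, 44 by the likelihood ratio test and 9 to 14 without 1 replicate. The log2 fold change of Ogg1 RNA in NeuN- ran from -0.0255 to 0.0547 without 1 replicate, and turned sign without Ogg1-/- replicate 2 (-0.0178) or WT replicate 3 (-0.0255).

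Replicate numbers did not pair Ogg1-/- with WT libraries (correlations of deviations 0.13, -0.12 and -0.27, none highest with its own number). The replicate block in the NeuN- fit gave 76 DEGs and left 4 of the 73 above the adjusted p of 0.05. Between NeuN- and NeuN+, the correlations for equal numbers were 0.02, 0.08 and 0.10 in WT and 0.17, 0.04 and 0.34 in Ogg1-/-. Each was the highest for its library except that of Ogg1-/- replicate 2. A replicate block in the interaction fit of all 24 libraries gave 26 genes, against 18 without it. None of the 73 changed sign in the 14 alternative fits compared gene by gene. The causes were not tested. Genes with low levels, such as Gm44371 and Wnt6, rest on few counts.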
